A study of Mus musculus with 9 samples.

Results

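The genes described here are 38 mouse genes that act around the entry into meiosis: meiotic entry factors, structural proteins of the synaptonemal complex, axis and cohesin proteins, and the enzymes and cofactors of meiotic recombination. They were taken from a named list of symbols, all 38 of which were matched to a row among the 56691 genes of the count table, and 35 had enough counts to be tested among 17251 tested genes. Messenger RNA from testes at postnatal day 7 was sequenced in 9 libraries. Of these, 3 carried the label of a Gm1142-/- Gm4779-/- genotype (DKO), 3 that of Gm1142-/- alone (Gm1142KO) and 3 were labelled normal wild type (WT). The sources used here give neither the strain, nor how the alleles were made, nor whether animals were pooled. Whether the numbered replicates are different animals or litters is not stated by any label, so a p-value here measures only the spread among these libraries, part of which may be technical. The series compares the P7 testis transcriptome of each genotype with WT.

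Meiosis is the pair of divisions that makes haploid germ cells, and it is preceded by a long prophase in which homologous chromosomes pair and exchange DNA. Differentiating spermatogonia switch on STRA8 and MEIOSIN in response to retinoic acid, and these activate many of the genes described here. Meiotic cohesins and axis proteins then fold each chromosome along an axis. SPO11 and its partners cut the DNA, the recombinase DMC1 helps to carry the cut ends into the homologue, and the synaptonemal complex zips the aligned axes together. In the mouse testis at P7 the cords hold spermatogonia and Sertoli cells, and the first germ cells are near the start of this programme, so many of these transcripts are low. In bulk tissue, fewer cells that express a gene and less RNA of it per cell cannot be told apart.

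Total counts were 4370124 to 8359594 in DKO, 4597447 to 5243756 in Gm1142KO and 4514237 to 5091624 in WT. Gm1142 and Gm4779 had 0 counts in each of the 3 DKO libraries. Gm1142 had 65, 46 and 50 counts in the libraries labelled Gm1142KO and 56, 50 and 41 in WT, so the count does not set these libraries apart from WT, and every direction below for Gm1142KO rests on the label. A gene count does not show a small deletion. Mitochondrially encoded genes took 27.1% to 32.9% of counts in DKO, 32.5% to 38.9% in Gm1142KO and 29.4% to 32.7% in WT, with the highest share in replicate 2 of Gm1142KO. Sertoli cell markers, all 23 detected in every library, summed to 2275 to 2882 CPM (counts divided by the TMM-scaled library size) in DKO, 2141 to 2345 CPM in Gm1142KO and 2420 to 2667 CPM in WT.

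In DKO testes, 31 of the 35 tested meiotic genes had a log2 fold change above 0 against WT, where 52.3% of all tested genes did. The median was 0.42 (range -0.31 to 2.34), against 0.02 for all tested genes. By edgeR's quasi-likelihood test with Benjamini-Hochberg adjustment over all 17251 genes, 1 of the 35 rose (Sycp1) and 0 fell, where 0.0464% of all tested genes rose and 0.0464% fell (0.0927% in either direction). At an unadjusted p under 0.05, 13 were higher and 0 lower, and DESeq2 called 4 higher (Sycp1, Sycp2, Smc1b and Stag3) and 0 lower. As a background, the unadjusted p of 0.0488 of Tex12 by edgeR ranked 1520 among all 17251 genes, both directions together. That rank also serves the other lists below in this comparison. The share of all genes called by DESeq2 is not given here. For 14 of the 35 genes all DKO libraries lay above all WT libraries, where 8.28% of all tested genes did, and for 1 (Rec114) all lay below, where 7.57% did.

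The directions depend on what the libraries are scaled to. Germ-cell markers outside the 38 (15 genes such as Ddx4, Dnd1 and Mael, 14 tested) had 14 of 14 log2 fold changes above 0 in DKO against WT and a median of 0.55, with 0 called by edgeR, 1 called higher by DESeq2, and 9 higher and 0 lower at an unadjusted p under 0.05. Their summed level was 499, 605 and 574 CPM in DKO and 368, 398 and 367 CPM in WT. When libraries were scaled to these germ-cell genes instead of to all genes, the median log2 fold change of all tested genes in DKO against WT moved from 0.02 to -0.55, and 12 of the 35 meiotic genes were above 0, with a median of -0.16. The median of the meiotic genes thus fell below 0, the point set by the germ-cell genes. Its place above the median of all genes could not change, since rescaling shifts all genes nearly alike. Of the 8 roles, telomere attachment (median 0.33) and meiotic entry (0.13) stayed above 0 under this scaling, and the other 6 had medians of -0.52 to -0.01. The entry genes split, with Meioc at 0.55 and Ythdc2 at -0.28. Among the telomere genes Sun1 stood at -0.35, and no gene of either role was called. Sycp1 was still called higher, at 0.53 (adjusted p = 0.0316 by edgeR), and Rec114 was called lower, at -0.84 (adjusted p = 0.0428 by edgeR). Under this scaling 5993 of all 17251 tested genes were called in either direction, against 16 on the scale of all genes. Every direction given below is on the scale of all genes unless it says otherwise.

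In the libraries labelled Gm1142KO, 2 of the 35 genes rose against WT (Sycp1 and Smc1b), where 10.2% of all tested genes rose, and 0 fell, where 8.38% did (18.5% in either direction). At an unadjusted p under 0.05, 4 were higher and 0 lower, and DESeq2 called 1 higher and 0 lower. Here the unadjusted p of 0.0492 of Syce1 by edgeR ranked 5288 among all 17251 genes, both directions together. The median log2 fold change was 0.09, against -0.01 for all genes, and 24 of 35 were above 0, where 49.3% of all genes were. For 7 genes all Gm1142KO libraries lay above all WT libraries, where 18.7% of all genes did, and for 3 all lay below, where 17.2% did. The share wholly above, 20.0% of the 35, is near that of all genes. Scaled to the germ-cell genes, 0 of the 35 were called, with Sycp1 at 0.50 and Smc1b at 0.38 (adjusted p-values of 0.0771 and 0.204 by edgeR). Of all 17251 tested genes, 2668 were called under that scaling, in either direction.

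Between the knockout groups, 6 of the 35 genes were called higher in DKO than in Gm1142KO (Sycp1, Sycp2, Stag3, Prdm9, Brca2 and Tex11), where 9.07% of all tested genes were, and 1 was called lower (Rec114), where 10.1% were (19.1% in either direction). The median log2 fold change was 0.37, against 0.03 for all genes, and 29 of 35 were above 0, where 52.6% of all genes were. The DKO libraries lay wholly above the Gm1142KO libraries for 14 genes, where 16.3% of all genes did, and wholly below for 1, where 17.1% did. The comparisons share libraries, so the 3 sets of values are not separate evidence. Scaled to the germ-cell genes, 1 of the 35 was called between these groups, Rec114 at -1.26 (adjusted p = 0.00298 by edgeR). That scaling called 4871 of all 17251 tested genes in either direction. Under it 14 of 35 were above 0, and the 6 genes called higher on the scale of all genes stood at 0.03 (Sycp1) to 0.69 (Prdm9).

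**Figure D1:**
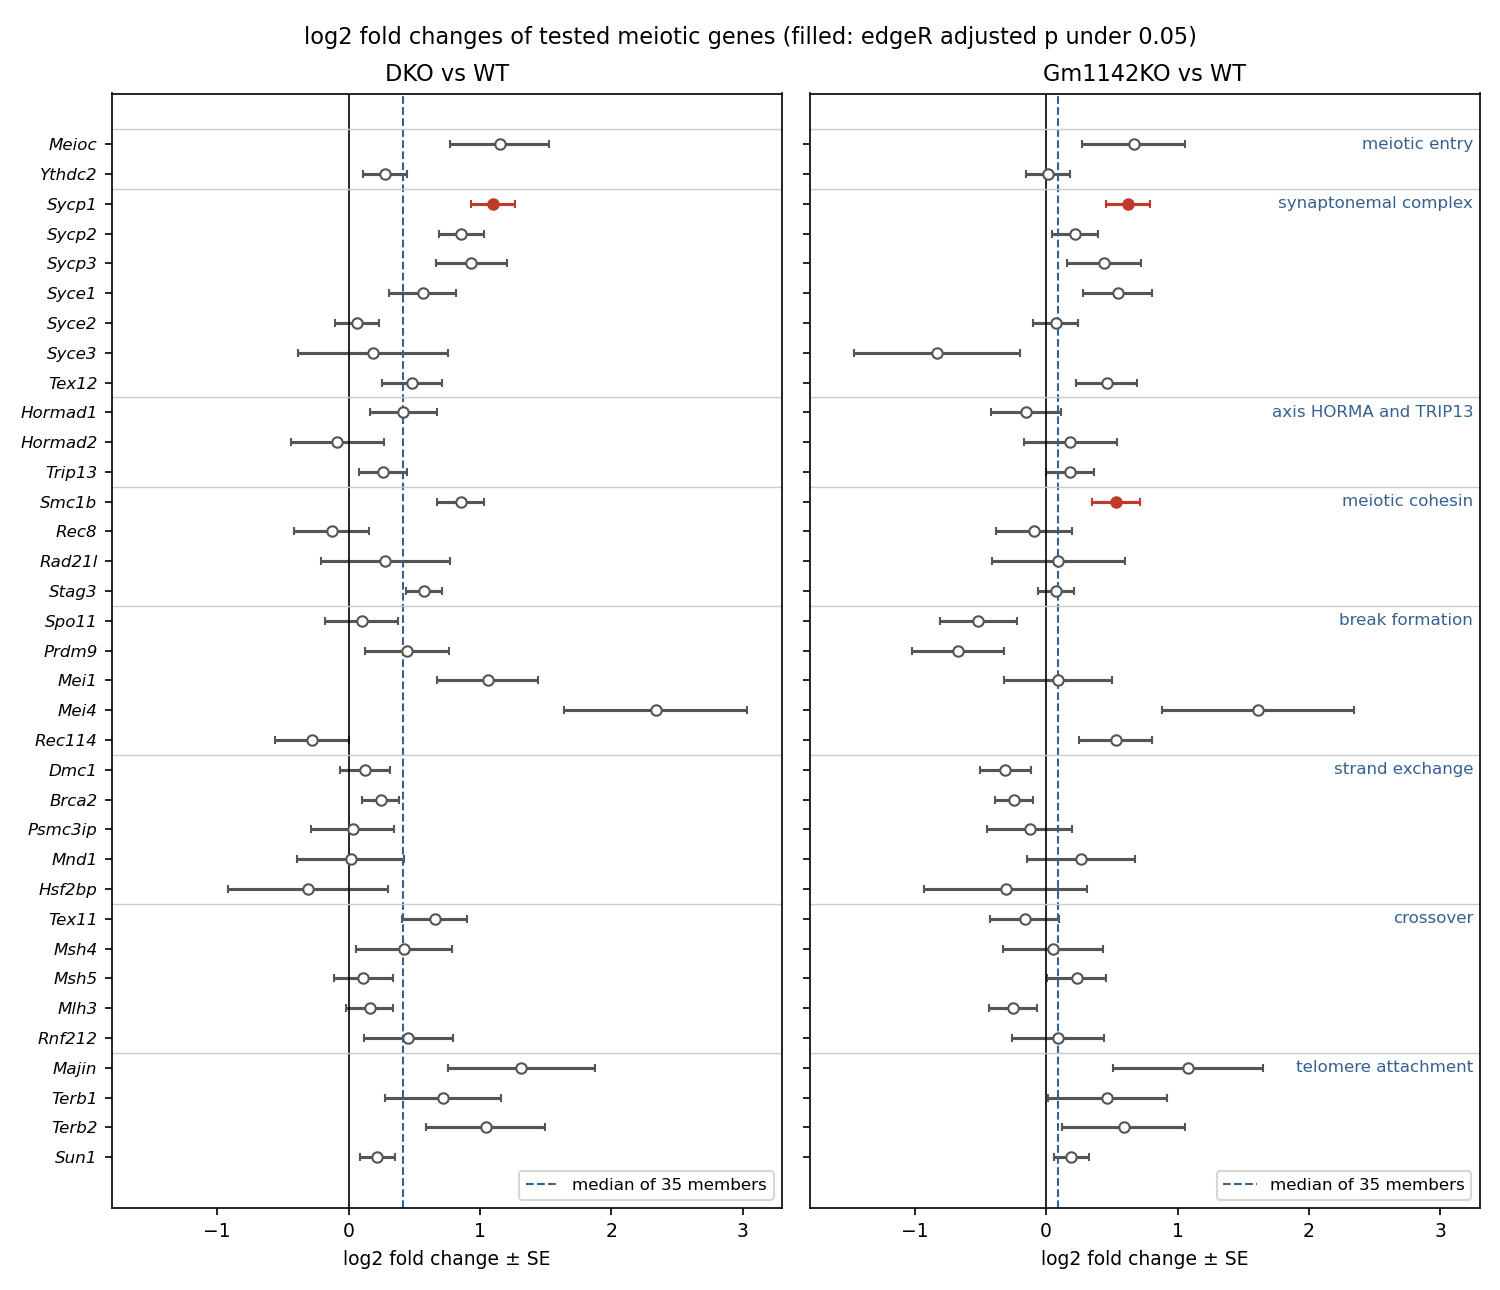
log2 fold change ± SE of each of the 35 tested meiotic genes, grouped by role, in DKO against WT (left) and Gm1142KO against WT (right), from the edgeR fit over all 17251 tested genes. Filled red points passed an adjusted p of 0.05 and the dashed line is the median of the 35 genes, which is 0.42 on the left and 0.09 on the right; Sycp1 is filled in both panels and Smc1b on the right.

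The 2 meiotic entry factors belong to one complex: MEIOC and the RNA helicase YTHDC2 bind RNA and let germ cells leave the mitotic programme. Ythdc2 had 36.7, 35.9 and 33.3 CPM in DKO, 28.4, 27.6 and 32.4 CPM in Gm1142KO and 25.7, 31.7 and 30.2 CPM in WT. Every DKO library lay above the 6 others, but by a small margin, and the log2 fold change of 0.28 against WT (SE 0.17) missed the threshold (adjusted p = 0.648 by edgeR). Meioc had 5.55, 16.2 and 12.5 CPM in DKO, 6.22, 12.02 and 6.82 CPM in Gm1142KO and 6.32, 5.13 and 4.09 CPM in WT. Its spread in DKO was the widest of the tested members in that group, with a coefficient of variation of 47.5%, and replicate 1 of DKO lay among the WT libraries. Against WT it stood at 1.15 (adjusted p = 0.363 by edgeR, SE 0.38). Meioc is named although the groups overlap, after its values were seen.

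Sycp1, which encodes the transverse filament protein that bridges the 2 axes of the synaptonemal complex, was the gene that was called in all 3 comparisons. It had 62.2, 85.5 and 88.3 CPM in DKO, 54.6, 59.3 and 55.8 CPM in Gm1142KO and 29.9, 43.4 and 37.0 CPM in WT. The groups did not overlap in any pair: each DKO library lay above each Gm1142KO library, and each of those above each WT library. The log2 fold change was 1.10 in DKO against WT (adjusted p = 0.00280 by edgeR, SE 0.17), 0.62 in Gm1142KO against WT (adjusted p = 0.0130 by edgeR, SE 0.17) and 0.48 in DKO against Gm1142KO (adjusted p = 0.0436 by edgeR, SE 0.16). Against WT, both calls held without each of 8 libraries in turn and were lost without WT replicate 1, the lowest library, where DKO against WT gave 0.97 (adjusted p = 0.0717 by edgeR) and Gm1142KO against WT gave 0.49 (adjusted p = 0.0971 by edgeR). The call between the knockout groups held in 3 of 9 such fits, those without DKO replicate 1, WT replicate 1 or WT replicate 2, with log2 fold changes from 0.39 to 0.61 over the 9.

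Sycp2 and Sycp3 encode the axial proteins on which the complex is built. Sycp2 had 44.97, 60.5 and 68.2 CPM in DKO, 32.2, 39.9 and 39.8 CPM in Gm1142KO and 30.8, 33.3 and 31.7 CPM in WT. All DKO libraries lay above the 6 others, while Gm1142KO and WT overlapped. Its log2 fold change was 0.63 in DKO against Gm1142KO (adjusted p = 0.0120 by edgeR, SE 0.17), a call lost without DKO replicate 3 (adjusted p = 0.0555 by edgeR) and without Gm1142KO replicate 1 (adjusted p = 0.0501 by edgeR). Against WT it was 0.86 in DKO (SE 0.17) and missed the threshold (adjusted p = 0.0560 by edgeR), while DESeq2 placed it at an adjusted p of 0.00752. Without DKO replicate 1, Gm1142KO replicate 1 or Gm1142KO replicate 2 it passed, at adjusted p-values of 0.0154, 0.0465 and 0.0309 by edgeR.

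Sycp3 had 15.3, 20.4 and 23.8 CPM in DKO, 11.5, 15.3 and 15.6 CPM in Gm1142KO and 11.7, 13.0 and 6.25 CPM in WT. DKO lay above WT in every library and the lowest WT library, replicate 3, stood apart from the other two. Its log2 fold change of 0.93 against WT (SE 0.27) did not pass (adjusted p = 0.265 by edgeR). Of its exonic bases, 52.2% are shared with Chpt1 on the opposite strand in GENCODE M21, and whether reads were counted by strand is not given in the sources used here, so its count could hold reads of Chpt1. Chpt1 itself stood at 0.13 in DKO against WT (adjusted p = 0.869 by edgeR).

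Syce1, Syce2, Syce3 and Tex12 encode proteins that hold SYCP1 in the middle of the complex, and their log2 fold changes in DKO against WT ran from 0.06 (Syce2) to 0.56 (Syce1), with 0 of 4 called by edgeR and 2 of 4 (Syce1 and Tex12) at an unadjusted p under 0.05. Tex12 alone among them had DKO wholly above WT, at 20.3, 19.0 and 23.6 CPM in DKO and 14.7, 16.6 and 13.4 CPM in WT. Syce2 had 34.7 ± 3.94 CPM in DKO and 33.0 ± 2.43 CPM in WT (SD, n = 3 each), a difference within the spread of either group. In Gm1142KO against WT, Syce1 at 0.54 and Tex12 at 0.46 stood beside 0.22 for Sycp2 and 0.44 for Sycp3, none of them called. In DKO against Gm1142KO, Syce3 stood at 1.02 (adjusted p = 0.270 by edgeR, SE 0.62), and Syce1, Syce2 and Tex12 at 0.02, -0.01 and 0.02. Summed over all 7 synaptonemal complex genes, the level was 198, 247 and 277 CPM in DKO, 163, 207 and 203 CPM in Gm1142KO and 138, 158 and 145 CPM in WT, with Sycp1 giving the largest share in DKO.

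Hormad1, Hormad2 and Trip13 overlapped WT in both knockout groups. The HORMA-domain proteins HORMAD1 and HORMAD2 mark axes that have not yet paired, and the ATPase TRIP13 removes them. Trip13 had 29.3, 34.2 and 25.1 CPM in DKO, 27.4, 27.4 and 29.4 CPM in Gm1142KO and 27.6, 22.1 and 24.6 CPM in WT, and DKO overlapped both other groups. The difference from WT was 0.26 on the log2 scale (adjusted p = 0.701 by edgeR, SE 0.18). Hormad1 stood at 0.42 and Hormad2 at -0.09 in the same comparison, and neither passed.

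Among the meiotic cohesins, Stag3 and Smc1b had DKO libraries wholly above WT, and Rec8 and Rad21l overlapped WT. SMC1B and STAG3 are germline subunits of cohesin, and REC8 and RAD21L are the 2 meiotic kleisins that close the ring. Stag3 had 98.9, 99.95 and 130.9 CPM in DKO, 75.6, 77.0 and 80.5 CPM in Gm1142KO and 74.3, 73.7 and 73.0 CPM in WT. The coefficient of variation over the WT libraries was 0.9%, the lowest of the 35 tested members, and each DKO library lay above all 6 others. The log2 fold change was 0.50 in DKO against Gm1142KO (adjusted p = 0.0130 by edgeR, SE 0.14), lost without DKO replicate 3 (0.35, adjusted p = 0.0759 by edgeR). Against WT it was 0.57 in DKO (adjusted p = 0.120 by edgeR, SE 0.13) and 0.08 in Gm1142KO (adjusted p = 0.753 by edgeR, SE 0.14).

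Smc1b had 45.2, 54.9 and 53.2 CPM in DKO, 36.5, 35.0 and 51.1 CPM in Gm1142KO and 30.4, 31.3 and 23.0 CPM in WT. Both knockout groups lay wholly above WT, and replicate 3 of Gm1142KO reached into the DKO range. Smc1b rose in Gm1142KO against WT by a log2 fold change of 0.53 (adjusted p = 0.0481 by edgeR, SE 0.18), but the call held in 2 of 9 fits with a library left out, those without Gm1142KO replicate 1 or 2. The other 7 fits gave adjusted p-values of 0.0534 to 0.311 by edgeR, the highest without Gm1142KO replicate 3, where the log2 fold change was 0.33. In DKO against WT the log2 fold change was larger, 0.85 (SE 0.18), and did not pass (adjusted p = 0.0804 by edgeR), at an unadjusted p of 0.000121 that ranked 26 among the 17251 genes. In Gm1142KO against WT the unadjusted p by edgeR was 0.00878, which ranked 3151. Of all tested genes, 0.0927% were called in DKO against WT and 18.5% in Gm1142KO against WT. The adjusted threshold thus fell at unlike unadjusted p-values in these comparisons. Rec8 stood at -0.13 and Rad21l at 0.28 in DKO against WT, with overlapping groups.

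**Figure D2:**
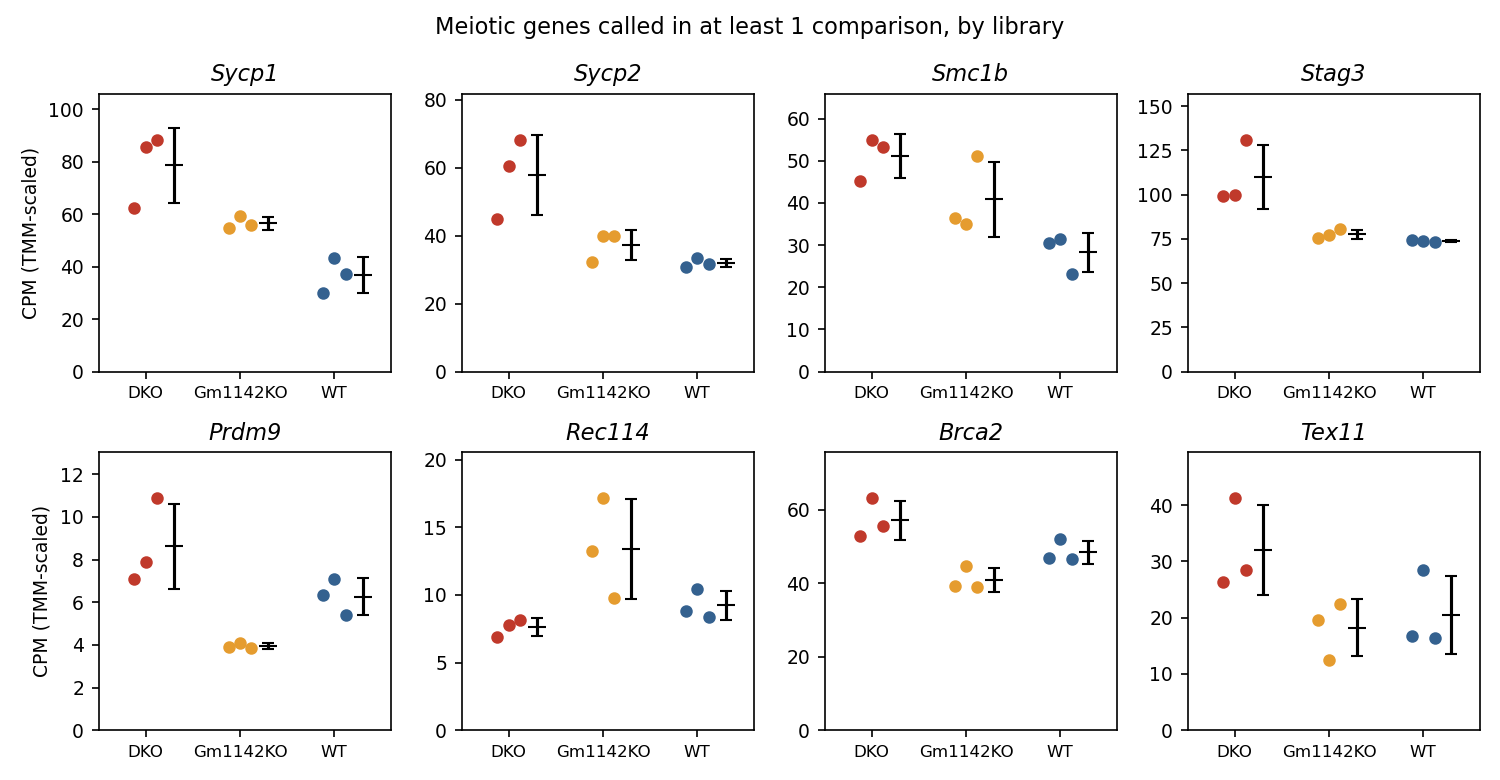
CPM of the 8 meiotic genes called in at least 1 of the 3 comparisons, in each library of DKO, Gm1142KO and WT, from replicate 1 on the left to replicate 3 on the right of each group. The bar beside each group is the mean ± SD of its 3 libraries; the DKO points of Sycp1, Sycp2 and Stag3 lie above all others, Rec114 is highest in Gm1142KO, and Prdm9 and Brca2 are lowest there.

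Break formation genes were called in both directions between the knockout groups. SPO11 is the nuclease that makes the breaks, PRDM9 marks where they fall, and MEI1, MEI4 and REC114 are partners that SPO11 needs. Prdm9 had 7.08, 7.90 and 10.9 CPM in DKO, 3.88, 4.09 and 3.84 CPM in Gm1142KO and 6.32, 7.10 and 5.38 CPM in WT. Gm1142KO lay below every other library, and DKO overlapped WT by a narrow margin. The log2 fold change was 1.12 in DKO against Gm1142KO (adjusted p = 0.0246 by edgeR, SE 0.34), -0.67 in Gm1142KO against WT (adjusted p = 0.198 by edgeR, SE 0.35) and 0.45 in DKO against WT (adjusted p = 0.722 by edgeR, SE 0.32). The call held in 5 of 9 fits with a library left out and was lost without DKO replicate 3 or without any 1 of the Gm1142KO libraries, at adjusted p-values of 0.0535 to 0.0948 by edgeR.

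Rec114 was the member called lower. It had 6.89, 7.78 and 8.15 CPM in DKO, 13.2, 17.1 and 9.80 CPM in Gm1142KO and 8.81, 10.5 and 8.399 CPM in WT. DKO lay below all other libraries, and the Gm1142KO group was spread from inside the WT range to well above it. Its log2 fold change was -0.81 in DKO against Gm1142KO (adjusted p = 0.0473 by edgeR, SE 0.28) and -0.28 in DKO against WT (adjusted p = 0.831 by edgeR, SE 0.28). The call between the knockout groups held in 1 of 9 fits with a library left out, that without Gm1142KO replicate 3, and reached an adjusted p of 0.203 by edgeR without Gm1142KO replicate 2. It also held with DESeq2 size factors, the strict filter, no mitochondrial genes and scaling to germ-cell genes. It was lost with DESeq2 (adjusted p = 0.0671), limma-voom (adjusted p = 0.0573), no filter (adjusted p = 0.0946 by edgeR), the 2 groups fitted alone (adjusted p = 0.0736 by edgeR), the replicate block (adjusted p = 0.0604 by edgeR) and without the second replicate of both knockout groups (adjusted p = 0.286 by edgeR). The exons of Rec114 share 26.9% of their bases with Nptn on the opposite strand, and Nptn itself had a log2 fold change of -0.05 between these groups.

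Mei4 was low everywhere. It had 15, 39 and 13 counts in DKO, 15, 6 and 8 in Gm1142KO and 4, 6 and 0 in WT, or 2.87, 4.4 and 2.94 CPM in DKO, 2.91, 1.53 and 1.70 CPM in Gm1142KO and 0.766, 1.18 and 0 CPM in WT. Both knockout groups lay above WT. Its log2 fold change of 2.34 in DKO against WT was the largest of the 35 but had an SE of 0.70 and did not pass (adjusted p = 0.287 by edgeR), and with so few counts in WT its size is poorly fixed. Spo11 had 10.3, 9.25 and 11.1 CPM in DKO, 5.05, 8.18 and 6.82 CPM in Gm1142KO and 8.997, 10.5 and 9.05 CPM in WT, with the lowest group in Gm1142KO, and was called in no comparison. Mei1 stood at 1.06 in DKO against WT with overlapping groups (adjusted p = 0.432 by edgeR, SE 0.39), and is likewise named after its values were seen.

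The 5 tested strand exchange genes had a median log2 fold change of 0.03 in DKO against WT, and 1 of them, Brca2, was called between the knockout groups. BRCA2 brings recombinase to cut DNA ends, DMC1 is the meiosis-specific recombinase, HOP2 (Psmc3ip) and MND1 assist it, and HSF2BP and BRCA2 bind each other. Brca2 had 52.8, 63.2 and 55.7 CPM in DKO, 39.2, 44.7 and 39.0 CPM in Gm1142KO and 46.9, 52.0 and 46.5 CPM in WT. The 3 groups did not overlap, with Gm1142KO lowest and DKO highest. The log2 fold change was 0.49 in DKO against Gm1142KO (adjusted p = 0.0229 by edgeR, SE 0.15), 0.24 in DKO against WT (adjusted p = 0.641 by edgeR, SE 0.14) and -0.25 in Gm1142KO against WT (adjusted p = 0.277 by edgeR, SE 0.15). The call was lost without DKO replicate 2, Gm1142KO replicate 1 or Gm1142KO replicate 3 (adjusted p-values of 0.0872, 0.0638 and 0.0899 by edgeR). Brca2 is also used by dividing somatic cells, so its level in whole testis is not that of germ cells alone.

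Dmc1 had 29.5, 25.7 and 36.9 CPM in DKO, 24.1, 23.0 and 20.7 CPM in Gm1142KO and 30.1, 23.3 and 30.8 CPM in WT. DKO overlapped WT and lay above Gm1142KO, and its log2 fold change of 0.43 between the knockout groups did not pass (adjusted p = 0.127 by edgeR, SE 0.19). Psmc3ip, Mnd1 and Hsf2bp stood at 0.03, 0.02 and -0.31 in DKO against WT, none of them called. Psmc3ip shares 21.2% of its exonic bases with Mlx on the opposite strand. Mlx was called in 2 comparisons, at -0.76 in Gm1142KO against WT (adjusted p = 0.0453 by edgeR) and 0.88 in DKO against Gm1142KO (adjusted p = 0.0195 by edgeR), where Psmc3ip stood at -0.13 and 0.16 and was not called.

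The 3 genes left out of the test by low counts all belong to strand exchange. Meiob, whose product works with SPATA22 on single-stranded DNA, had 9, 7 and 15 counts in DKO, 2, 4 and 0 in Gm1142KO and 1, 0 and 1 in WT, so every DKO library held more than any other, although per depth DKO replicate 2 (0.790 CPM) lay below Gm1142KO replicate 2 (1.02 CPM). Rad51ap2 had 2, 32 and 7 counts in DKO, 2, 1 and 1 in Gm1142KO and 6, 3 and 2 in WT, with most of them in DKO replicate 2, the deepest library. Spata22 had 2 counts in WT replicate 2 and 0 in the other 8 libraries, where a count of 0 allows up to 3 counts, or 0.338 to 0.767 CPM depending on the library. In GENCODE M21, 80.5% of its exonic bases are shared on the same strand with Gm49340, which had 0 counts in all 9 libraries, and how reads in shared exons were assigned is not given in the sources used here.

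Of the 5 crossover genes, Tex11 alone was called, between the knockout groups. MSH4 and MSH5 stabilise recombination intermediates, TEX11 and RNF212 act with them, and MLH3 marks the sites that become crossovers. Tex11, the X-linked gene among the 38, had 26.4, 41.2 and 28.5 CPM in DKO, 19.6, 12.5 and 22.4 CPM in Gm1142KO and 16.7, 28.4 and 16.4 CPM in WT. DKO lay above Gm1142KO throughout, while WT replicate 2 reached into the DKO range. The difference was 0.82 on the log2 scale in DKO against Gm1142KO (adjusted p = 0.0270 by edgeR, SE 0.25), 0.66 in DKO against WT (adjusted p = 0.446 by edgeR, SE 0.25) and -0.16 in Gm1142KO against WT (adjusted p = 0.717 by edgeR, SE 0.26). The call was lost without DKO replicate 2 (0.60, adjusted p = 0.174 by edgeR) and without Gm1142KO replicate 2 (0.61, adjusted p = 0.114 by edgeR), which are the highest and the lowest library.

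Mlh3 had 29.1, 30.8 and 29.4 CPM in DKO, 21.2, 20.5 and 25.4 CPM in Gm1142KO and 28.7, 28.4 and 22.8 CPM in WT. DKO lay above every other library, by 0.16 on the log2 scale against WT (adjusted p = 0.849 by edgeR, SE 0.18) and by 0.42 against Gm1142KO (adjusted p = 0.118 by edgeR, SE 0.18). Msh4, Msh5 and Rnf212 stood at 0.42, 0.11 and 0.46 in DKO against WT and overlapped WT.

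The 4 telomere attachment genes all had DKO libraries wholly above WT, where 8.28% of all tested genes did. Their median log2 fold change was 0.88, with 0 of 4 called by edgeR and 2 of 4 at an unadjusted p under 0.05. DESeq2 called 0 of 4 as well. TERB1, TERB2 and MAJIN tie telomeres to the inner nuclear membrane, and SUN1 passes force from outside the nucleus to move chromosomes. Majin had 2.11, 3.27 and 4.30 CPM in DKO, 1.75, 2.81 and 3.62 CPM in Gm1142KO and 1.15, 1.18 and 1.51 CPM in WT. Both knockout groups lay above WT and overlapped each other, at 1.32 in DKO against WT (adjusted p = 0.490 by edgeR, SE 0.56) and 1.08 in Gm1142KO against WT (adjusted p = 0.211 by edgeR, SE 0.57).

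Terb2 had 4.78, 4.17 and 7.93 CPM in DKO, 3.50, 4.86 and 3.84 CPM in Gm1142KO and 1.72, 4.14 and 2.15 CPM in WT. The lowest DKO and the highest WT library were nearly level, and its log2 fold change was 1.05 (adjusted p = 0.508 by edgeR, SE 0.45). Terb1 had 3.64, 3.61 and 7.25 CPM in DKO, 3.50, 4.86 and 3.62 CPM in Gm1142KO and 3.06, 2.96 and 2.58 CPM in WT, where DKO replicate 3 stood well above the other two. Sun1, which somatic cells also use, had 67.9, 76.3 and 80.9 CPM in DKO, 69.9, 71.1 and 79.5 CPM in Gm1142KO and 65.1, 63.1 and 65.0 CPM in WT. Both knockout groups lay above WT, at 0.22 in DKO (adjusted p = 0.642 by edgeR, SE 0.13) and 0.19 in Gm1142KO (adjusted p = 0.352 by edgeR, SE 0.13).

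Promoters are shown for Sycp1, Smc1b, Brca2 and Rec114, picked from the called members by no set rule. The repressor and activator complexes of meiotic genes are known to read short DNA words near their start sites. STRA8 with MEIOSIN is known to favour CNCCTCAG, the MGA and MAX repressor pair reads the E-box CACGTG, and E2F6 of the same repressor complex reads GGCGGGAA. RefSeq windows of 250 bases before to 50 after the start (GRCm38.p6, not the build of the counts) were found for 32 of the 38 genes and searched on both strands. The sequences below are the 110 bases before the RefSeq start, 5′ to 3′ on the gene's strand, with an E-box, TCTCGCGA or TGACGT or their complements in capitals.
Sycp1, chr3:102936101-102936210, minus strand: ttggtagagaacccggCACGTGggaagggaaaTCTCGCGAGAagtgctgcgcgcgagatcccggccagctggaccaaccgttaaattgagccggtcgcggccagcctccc
Smc1b, chr15:85131958-85132067, minus strand: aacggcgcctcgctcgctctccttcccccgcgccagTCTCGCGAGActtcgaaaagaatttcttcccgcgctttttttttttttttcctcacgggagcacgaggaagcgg
Brca2, chr5:150522511-150522620, plus strand: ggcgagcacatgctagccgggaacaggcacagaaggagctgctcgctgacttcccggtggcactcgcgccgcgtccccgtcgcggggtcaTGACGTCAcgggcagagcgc
Rec114, chr9:58741560-58741669, minus strand: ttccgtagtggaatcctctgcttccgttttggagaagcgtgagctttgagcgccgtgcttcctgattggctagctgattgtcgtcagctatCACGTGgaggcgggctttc

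Sycp1 and Smc1b, the genes called in Gm1142KO against WT, both carry TCTCGCGA and its complement as overlapping letters, at 78 to 69 bases before the start in Sycp1 and 74 to 65 in Smc1b. That word was picked after these sequences were read. It occurs in 4 of 32 windows of the meiotic genes (Smc1b, Spata22, Stag3 and Sycp1), or 12.5%, and in 1.13% of 27025 genes. CACGTG was found in 8 of 32 windows (25%) and in 8.09% of all genes, GGCGGGAA in 8 of 32 (25%) and 2.52%, and CNCCTCAG in 7 of 32 (21.9%) and 9.12%. TGACGT, the core of the cyclic AMP response element, was in 1 of 32 (Brca2) and in 8.37% of all genes. Sycp1 held CNCCTCAG as its complement, at 33 to 40 bases after the start and so outside the printed stretch. Of the called members not printed, Sycp2 held none of these words. Stag3 held CACGTG and TCTCGCGA, Prdm9 held GGCGGGAA and CNCCTCAG, and Tex11 had no window. The 250 bases before the start had a median GC content of 58.4% in the meiotic genes and 52.0% in all genes, and a median of 13 CpG dinucleotides against 6. TCTCGCGA, CACGTG and GGCGGGAA each contain CpG, and the shares were not adjusted for it. These are matches of letters and describe the windows alone.

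Summed over the 38 genes, the level was 757, 868 and 929 CPM in DKO, 631, 704 and 707 CPM in Gm1142KO and 584, 653 and 611 CPM in WT. The means were 851 ± 87.1 CPM in DKO, 680 ± 43.0 CPM in Gm1142KO and 616 ± 35.1 CPM in WT (SD, n = 3 each). Each DKO library lay above all 6 others, and Gm1142KO overlapped WT. Divided by the summed germ-cell genes of the same library, the level was 1.52, 1.43 and 1.62 in DKO, 1.52, 1.91 and 1.51 in Gm1142KO and 1.59, 1.64 and 1.67 in WT, so DKO no longer lay above WT. Undifferentiated spermatogonia markers summed to 231, 271 and 205 CPM in DKO, 217, 175 and 222 CPM in Gm1142KO and 213, 219 and 208 CPM in WT, with overlap among all groups. Differentiating spermatogonia markers summed to 452, 503 and 404 CPM in DKO, 397, 353 and 393 CPM in Gm1142KO and 380, 408 and 349 CPM in WT, with DKO replicate 3 inside the WT range. Ccnd2 and Dmrt1, of which Dmrt1 is also on the Sertoli list, gave 54.1% to 75.2% of that sum. Without this pair, singled out after the values were seen, the sum was 155, 206 and 186 CPM in DKO, 122, 117 and 141 CPM in Gm1142KO and 94.4, 130 and 99.5 CPM in WT, so that DKO lay wholly above WT. Of the 12 tested differentiating spermatogonia markers, 10 were above 0 in DKO against WT, with a median log2 fold change of 0.69 beside 0.42 for the meiotic genes. By edgeR, DESeq2 and limma-voom 0 of the 12 were called, with 7 higher and 0 lower at an unadjusted p under 0.05. DKO lay wholly above WT for 4 of them (Kit, Dmrtb1, Sohlh1 and Esx1), where 8.28% of all tested genes did. Sohlh1 is also on the list of undifferentiated spermatogonia markers. The part of germ-cell content and stage in the meiotic values was not tested.

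Markers of somatic cells were set beside these. Duct and epididymis markers summed to 140, 120 and 146 CPM in DKO, 200.4, 163 and 168 CPM in Gm1142KO and 188, 199.9 and 225 CPM in WT. DKO lay wholly below both other groups. Of the 14 tested, 13 were below 0 in DKO against WT with a median log2 fold change of -0.56, and 7 lay wholly below WT, where 7.57% of all tested genes did. By edgeR and limma-voom 0 of these were called, DESeq2 called 1 lower, and 0 were higher and 6 lower at an unadjusted p under 0.05. Leydig cell, myoid and stromal, and endothelial markers had 11 of 13, 13 of 16 and 10 of 13 below 0, with medians of -0.22, -0.16 and -0.24. Macrophage and blood markers had 8 of 14 and 3 of 5 above 0, with medians of 0.055 and 0.067. Of all tested genes, 52.3% were above 0. For Sertoli cell markers 13 of 22 were below 0, with a median of -0.05. The Sertoli sums of Gm1142KO lay wholly below WT, 11 of 22 markers lay wholly below, where 17.2% of all tested genes did, and 7 fell and 1 rose by edgeR, where 8.38% and 10.2% of all genes did. Their part in the meiotic values was not tested.

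**Figure D3:**
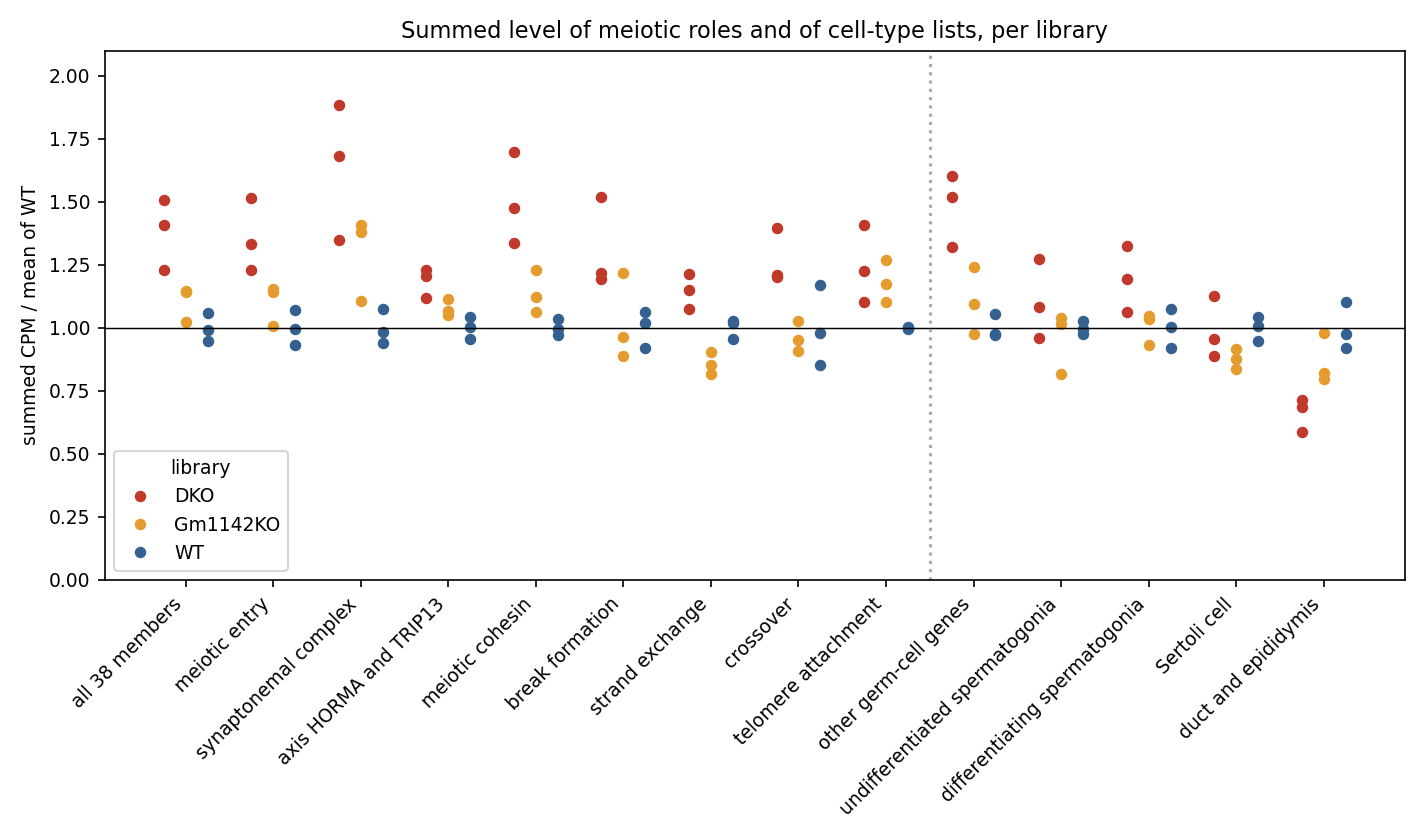
Summed CPM of the 38 meiotic genes, of each of their 8 roles and, right of the dotted line, of 5 cell-type marker lists, in each library and divided by the mean of the 3 WT libraries. DKO lies above WT for all 38 meiotic genes together and for the other germ-cell genes, Sertoli cell markers of DKO and WT overlap, and duct and epididymis markers of DKO lie below WT.

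The order of levels among the genes was read per kilobase of exon, as mean CPM per kb. In DKO, Sycp1 led with 22.1, ahead of Tex12 at 20.6, Stag3 at 19.2 and Syce1 at 18.2. In Gm1142KO, Tex12 at 20.3, Syce1 at 17.9 and Syce2 at 17.7 led, with Sycp1 at 15.9. In WT the order began with Syce2 at 16.8, Tex12 at 14.7, Stag3 at 12.9, Syce1 at 12.3 and Dmc1 at 11.5, and Sycp1 followed at 10.3. Mei4, Spata22 and Meiob closed the WT order at 0.158, 0.103 and 0.0753. Neighbours in these orders were not tested against each other, and the lengths come from GENCODE M21 exons.

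**Figure D4:**
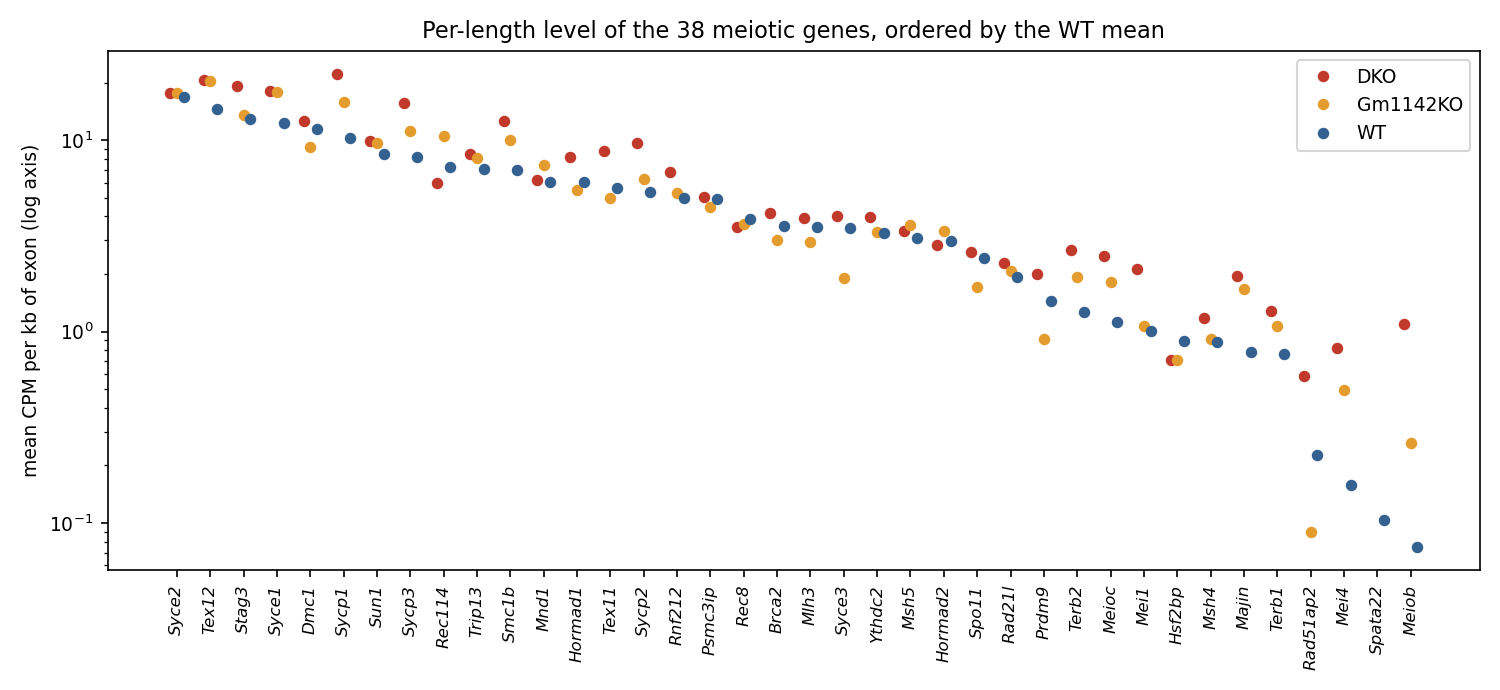
Mean CPM per kb of exon of each of the 38 meiotic genes in DKO, Gm1142KO and WT, on a log axis and ordered by the WT mean; a mean of 0 is not drawn. Synaptonemal complex genes and Stag3 fill the upper end, with Sycp1 at 22.1 in DKO, 15.9 in Gm1142KO and 10.3 in WT, and Mei4, Spata22 and Meiob the lower end.

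The libraries of a group did not vary alike. In DKO, replicate 3 was the highest of its group for 21 of the 35 tested genes and replicate 1 the lowest for 18. In Gm1142KO, replicate 2 was highest for 19 and replicate 1 lowest for 18, and in WT, replicate 2 was highest for 20. The median coefficient of variation over the 35 genes was 18.2% in DKO, 21.8% in Gm1142KO and 16.1% in WT.

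Other genes of the entry switch were set beside the members. Stra8, the retinoic acid target that starts the programme, had 36.6, 33.1 and 27.0 CPM in DKO, 30.5, 24.8 and 23.2 CPM in Gm1142KO and 9.57, 27.6 and 12.3 CPM in WT. WT replicate 2 reached the level of the knockout libraries, and the log2 fold change of 0.97 in DKO against WT did not pass (adjusted p = 0.264 by edgeR, SE 0.28). Meiosin stood at 14.0 ± 4.89 CPM in DKO, 13.6 ± 1.12 CPM in Gm1142KO and 10.7 ± 1.75 CPM in WT (SD, n = 3 each). Dazl, a germ-cell RNA-binding protein that makes germ cells competent for meiosis, had 305, 368 and 370 CPM in DKO, 138, 103 and 131 CPM in Gm1142KO and 179, 227 and 181 CPM in WT. The 3 groups did not overlap, and Dazl was higher in DKO than in WT by 0.83 (adjusted p = 0.00690 by edgeR, SE 0.14) and lower in Gm1142KO than in WT by a log2 fold change of -0.66 (adjusted p = 0.00208 by edgeR, SE 0.14).

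Of the 10 tested entry genes outside the 38, 1 rose in DKO against WT (Dazl) and 0 fell by edgeR, with 4 higher and 0 lower at an unadjusted p under 0.05. In Gm1142KO against WT, 3 rose, where 10.2% of all tested genes did: L3mbtl2 by 0.79, Max by 0.60 and E2f6 by 0.52. In the same repressor complex, Mga stood at -0.39 (adjusted p = 0.0726 by edgeR) and Pcgf6 at -0.70 (adjusted p = 0.0779 by edgeR), both with Gm1142KO wholly below WT and neither called. Dazl and Cyp26b1, which breaks down retinoic acid, fell, at log2 fold changes of -0.66 and -0.51, where 8.38% of all genes fell. In DKO against Gm1142KO, 4 were called higher (Dazl, Rbm46, Mga and Cyp26b1), where 9.07% of all genes were, and 2 lower (Max and E2f6), where 10.1% were.

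Kit, the receptor of differentiating spermatogonia, had 48.6, 63.5 and 53.7 CPM in DKO, 34.6, 22.8 and 45.4 CPM in Gm1142KO and 33.7, 29.0 and 34.0 CPM in WT. DKO lay above the 6 others, at 0.78 against WT (adjusted p = 0.183 by edgeR, SE 0.20). Ddx4, a helicase of all germ cells, had 66.4, 113 and 90.8 CPM in DKO, 56.3, 52.2 and 68.2 CPM in Gm1142KO and 58.8, 65.2 and 69.8 CPM in WT. DKO replicate 1 lay among the WT libraries, and the log2 fold change against WT was 0.49 (adjusted p = 0.405 by edgeR, SE 0.17).

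A further 38 meiotic genes outside the members, 35 of them tested, were described in the same way. In DKO against WT, 31 were above 0, 15 had DKO wholly above WT, where 8.28% of all tested genes did, the median was 0.37 and 0 were called by edgeR, with 13 higher and 0 lower at an unadjusted p under 0.05, while DESeq2 called 1 higher. In Gm1142KO against WT, 5 of 35 rose, where 10.2% of all genes did, and 2 fell, where 8.38% did, so the 7 together were near the background of 18.5%. Those that rose were Exo1, a nuclease that trims break ends, by 0.97, Ankrd31, a partner of REC114, by 0.84, Hrob by 0.81, Hells by 0.61 and the checkpoint kinase gene Atr by 0.47. Fignl1 fell by 0.72 and Skp2 fell by 0.51 on the log2 scale. In DKO against Gm1142KO, Tex15 was called higher by 0.90, Fignl1 by 0.87, Zcwpw1, a reader of the marks PRDM9 makes, by 0.61 and Skp2 by 0.50, and Exo1 was called lower at -0.87, where 9.07% of all genes were called higher and 10.1% lower.

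A list of general cohesin and repair genes that dividing cells use also held Prdm10 and Ythdc1, with 33 of 33 tested. Its median log2 fold change was 0.14 in DKO against WT. Of the 33, 0 were called by edgeR or DESeq2, and 7 were higher and 1 lower at an unadjusted p under 0.05. In Gm1142KO against WT, Rad51ap1 rose by 0.57 and Msh3 by 0.53, while Sfr1 fell by 0.75 and Pds5b fell by 0.51, where 10.2% of all genes rose and 8.38% fell. In DKO against Gm1142KO, 7 were called higher, among them Sfr1 at 0.81, Palb2, the gene of a BRCA2 partner, at 0.72, Rad50 at 0.66 and Stag2 at 0.63, and 2 lower, Rpa3 at -0.60 and Msh3 at -0.60, where 9.07% of all tested genes were called higher and 10.1% lower.

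Of 25 genes of later spermatocytes and spermatids, 11 had enough counts to be tested. Their summed level was 152, 166 and 154 CPM in DKO, 142, 165 and 169 CPM in Gm1142KO and 169, 145 and 145 CPM in WT, with all groups overlapping. Mybl1, a master regulator of the pachytene stage, gave the largest part in WT, with 32.0, 39.8 and 30.1 CPM in DKO and 54.0, 44.6 and 46.7 CPM in WT. It stood at -0.50 in DKO against WT (adjusted p = 0.369 by edgeR), and the other 10 tested genes were above 0, with a median of 0.40 over the 11. DKO lay wholly above WT for 4 of the 11 (Piwil1, Clgn, Ccnb3 and Rfx2), where 8.28% of all tested genes did. It lay wholly below for Mybl1, where 7.57% of all tested genes did. Of the genes not tested, Pgk2 and Cetn1, which mark advanced spermatocytes and spermatids, had at most 2 counts in any library. Some others reached 9 (Tnp1), 12 (Tnp2), 13 (Ccna1 and Aurkc) and 21 counts (Sox30) in single libraries. By edgeR and by DESeq2 0 of the 11 were called in DKO against WT, with 1 higher and 1 lower at an unadjusted p under 0.05. Against WT, Tbpl1 rose by 0.55 in Gm1142KO and Mybl1 fell by 0.62, where 10.2% of all genes rose and 8.38% fell.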

How the data were processed

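The 9 libraries were poly(A)-selected, per the labels, and the authors deposited 1 table of unnormalised read counts with a column for each. Reads were handled with cutadapt, Bowtie2, STAR and featureCounts on mm39, per the submitters' processing notes. Versions, annotation, strand setting and the handling of reads shared by genes are not stated, which matters for the 8 genes of 38 whose exons overlap another gene. Groups come from the sample titles.

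Identifiers were paired with symbols, exon lengths and overlaps from GENCODE M21 (GRCm38). In edgeR 4.0.16 (R 4.3.3), genes passing filterByExpr (count 10, total 15) were TMM-scaled and fitted with 1 term per group over all 9 libraries, 6 residual degrees of freedom and quasi-likelihood F-tests. Benjamini-Hochberg adjustment covered all genes, and calls were made under 0.05. A standard error is the log2 fold change divided by the square root of F. A floor of 3 counts covers counting error only, since PCR duplicates cannot be told from separate molecules. The fit was tested on simulated data.

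Named in full are members called in any comparison, the highest member by mean CPM in each role, and members with DKO and WT apart among the 10 largest changes. Levels of Dmc1, Spo11, Tex12, Syce2 and Meioc and of the untested members were given outside these rules. Other genes named are the called genes of 4 lists, up to 6 per list by size of change, and 5 reference genes. Further list genes, and the genes that overlap a member, were named after their values were seen. Members and lists were chosen with earlier results of these data known. Alternatives were other scalings, filters, DESeq2 1.42.0, limma-voom (limma 3.58.1), 2-group fits, a replicate block and leaving out libraries. Removing mitochondrial genes, removing replicate 2 of both knockout groups, and the TCTCGCGA motif were chosen after seeing the data.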

Additional observations from a re-analysis of the deposited data

How the results depend on the processing

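Over the 35 tested meiotic genes, 1 was called in DKO against WT, 2 in Gm1142KO against WT and 7 in DKO against Gm1142KO. In DKO against WT the count was 4 with DESeq2 and 4 with no filter (both Sycp1, Sycp2, Smc1b and Stag3), 3 when the 2 groups were fitted alone, 3 at an adjusted p under 0.10, 2 with scaling to germ-cell genes and 2 without the second replicate of both knockout groups (Sycp1 and Stag3). In Gm1142KO against WT it was 1 (Sycp1) with DESeq2 size factors, with DESeq2, with limma-voom, with no filter, in the 2-group fit and without mitochondrial genes, and 0 with scaling to germ-cell genes and 0 with a 2-fold minimum. In DKO against Gm1142KO it was 1 with scaling to germ-cell genes, 1 (Prdm9) with the 2-fold minimum and 2 (Sycp2 and Stag3) without the second replicate of both knockout groups. With 1 library left out at a time, the counts ran from 0 to 3, from 0 to 3 and from 2 to 6 in the 3 comparisons. The causes of these changes were not tested. No call of a single member turned its direction under any alternative. The 10 calls had 190 values under the alternatives, of which 129 kept the call and 61 lost it, with most losses for Smc1b in Gm1142KO against WT (15 of 19) and Rec114 in DKO against Gm1142KO (14 of 19), and fewest for Sycp1 in DKO against WT (1 of 19). Of 1796 values for the 95 results not called, 15 gained a call. With the replicate number as a block the counts were 1, 1 (Sycp1) and 6. Same-numbered libraries did not deviate together (correlations of -0.267 to 0.101 over the 3 comparisons), so the numbers were not taken to pair them. Depth limits Meiob, Rad51ap2, Spata22 and Mei4.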
